A study of Mus musculus with 20 samples.

Results

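The left atrium was compared with the left ventricle of newborn mice that breathed room air. The comparison holds the 10 room-air libraries, chosen by their titles, of the 20 libraries in the series: 5 of left atria (RA_LA) and 5 of left ventricles (RA_LV). All came from C57BL/6J pups kept at 21% oxygen from birth to postnatal day 4, which were nursed by dams that moved between room air and hyperoxia every day. The other 10 libraries, 5 of left atria (O2_LA) and 5 of left ventricles (O2_LV), came from pups of the same strain and age kept at 100% oxygen (hyperoxia). Atria and ventricles had been parted with forceps and a needle, so each library holds the whole wall, with muscle, vessels, endocardium, epicardium and connective tissue. The labels say that each library number stands for 1 mouse of its group. They give no sex, and in each of the 10 room-air libraries the reads of 4 Y-linked genes together exceeded those of Xist.

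The heart chambers arise from different parts of the embryonic heart and keep separate gene programmes. Atrial muscle cells use their own myosin light chains, secrete natriuretic peptide and carry fast-conducting connexin, while ventricular muscle cells use the ventricular light chains and hold more mitochondria for their pressure work. Transcription factors of the T-box, Iroquois, Hey and COUP-TF families set these programmes apart. In the newborn the ventricular muscle cells still divide, and their metabolism turns from glucose towards fatty acids.

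The deposited values are read counts per gene, with 27619199 to 38244117 counts per room-air library. Levels are in CPM, the counts of a gene per 1e6 counts of its library after TMM scaling, and stand as the mean ± SD of the 5 libraries of a chamber unless each library is listed. Differences are log2 values of atrium minus ventricle with their standard error (SE), so a positive value means more in the atrium. Of 55367 genes listed, 16598 passed the filter on low counts and were tested with edgeR's quasi-likelihood test, and a gene passed at a Benjamini-Hochberg adjusted p under 0.05. The mRNAs of the mitochondrial genome took 6.07% to 7.65% of the counts in atria and 9.35% to 20.6% in ventricles. When the log2 level of each gene, relative to the mean of the 10 libraries, was regressed on its log2 exon length, the slope ran from 0.035 to 0.159 in atria and from -0.264 to -0.023 in ventricles, with the lowest value in ventricle 4. A lower slope means that short transcripts took a larger part of the library, so transcript length and chamber moved together.

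Most of the genes tested differed between the chambers: 9122 passed (55.0%), of which 4762 were higher in the atrium (28.7%) and 4360 in the ventricle (26.3%). A difference of at least 2-fold was found for 1934 genes higher in the atrium (11.7%) and 1551 higher in the ventricle (9.34%), and 175 and 130 genes differed by at least 10-fold. In 7713 genes (46.5%) each library of one chamber lay above each library of the other. The median log2 difference over all genes tested was 0.03. Which chamber had more called genes depended on the scaling and the filter: with upper-quartile scaling 4434 genes were higher in the atrium and 4684 in the ventricle, and with a filter at 1 CPM 3693 and 4919. Genes higher in the ventricle had a median exon length of 3216 bases, against 5096 bases for those higher in the atrium and 4092 bases over all tested genes with an annotated length.

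**Figure D1:**
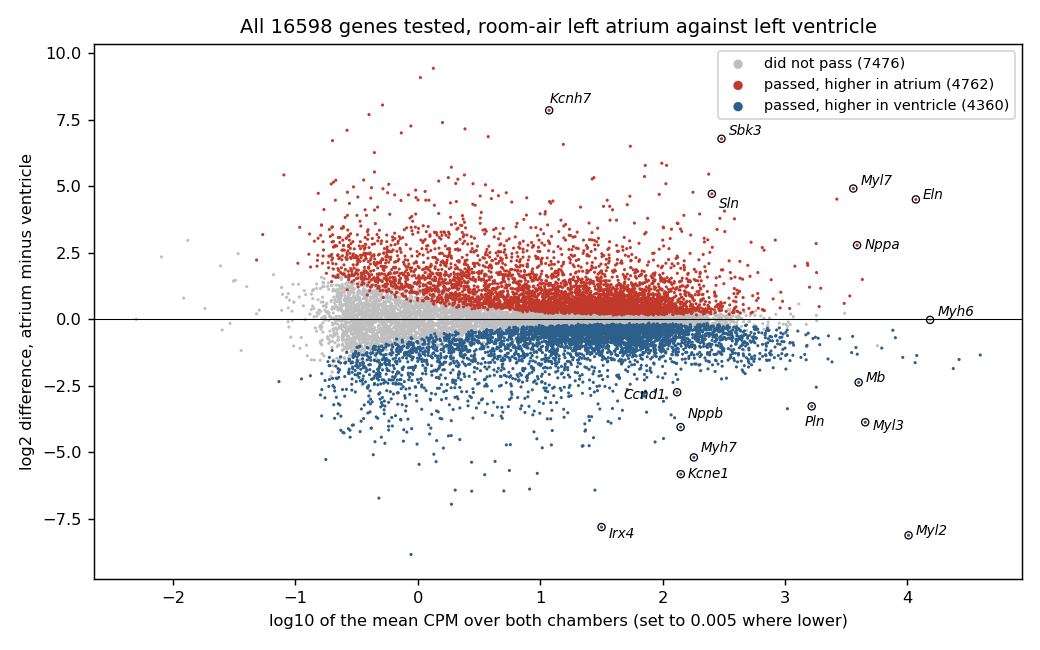
Each point is 1 of the 16598 genes tested, with the log10 of its mean CPM over both chambers on the x axis and its log2 difference (atrium minus ventricle) on the y axis. Red points passed with more in the atrium (4762), blue points with more in the ventricle (4360) and grey points did not pass (7476); Myl2 and Irx4 lie lowest among the labelled genes and Kcnh7 highest, while Myh6 lies at 0.

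Atrial muscle genes were mostly higher in the atrium. Of 22 atrial cardiomyocyte genes, all tested, 20 were higher in the atrium, Kcna5 was higher in the ventricle and Bmp10 did not pass. The median log2 difference of the list was 3.45, and its summed level was 23900 to 29600 CPM in atria and 1820 to 2880 CPM in ventricles. Because these are whole tissues, fewer cells of a type and less RNA per cell cannot be told apart here or in any list below. The counts of each list stand beside 28.7% higher in the atrium and 26.3% in the ventricle over all genes tested.

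Myl7, the atrial regulatory myosin light chain, was at 6940, 6300, 6650, 8450 and 6700 CPM in atria 1 to 5 and at 530, 19.5, 310, 71.5 and 227 CPM in ventricles 1 to 5. The chambers did not overlap, but the ventricles themselves spanned a wide range, with ventricle 1 highest and ventricle 2 lowest. Its log2 difference was 4.92 (SE 0.97, adjusted p = 0.00037). Myl4, the atrial essential light chain, was at 5090 ± 571 CPM in atria and 222 ± 171 in ventricles (log2 difference 4.52, SE 0.6, adjusted p = 2.8e-06). Nppa encodes atrial natriuretic peptide, the hormone that atrial muscle stores and releases on stretch. It was at 7480, 6120, 6470, 7830 and 6030 CPM in atria and at 875, 1250, 406, 1520 and 847 CPM in ventricles. No ventricle reached an atrium, and ventricle 4 was highest and ventricle 3 lowest of the ventricles. The mean was 6.92-fold higher in atria (log2 difference 2.79, SE 0.36, adjusted p = 1.1e-06). Sln encodes sarcolipin, the atrial inhibitor of the calcium pump, and stood at 487 ± 44.9 CPM in atria and 18.5 ± 16.4 in ventricles (log2 difference 4.72, SE 0.93, adjusted p = 0.0004).

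The 12 largest differences in favour of the atrium included genes that carry little signal in the ventricle. Kcnh7, a voltage-gated potassium channel of the ERG family, was at 21.7, 23.5, 21.3, 21.5 and 30.2 CPM in atria and at 0.234, 0, 0.0332, 0.0411 and 0.186 CPM in ventricles, where all 5 libraries together held 13 of its counts against 4458 in atria. Its mean was 239-fold higher in atria (log2 difference 7.86, SE 0.37, adjusted p = 1.3e-13), the largest log2 difference among the genes the naming rule could take. The neighbouring kinase genes Sbk3 and Sbk2 lie next to each other on chromosome 7 (Sbk3 at 4965260 to 4971168, Sbk2 at 4940512 to 4964406, GRCm38, both on the minus strand). Sbk3 was at 517, 560, 609, 621 and 695 CPM in atria and at 8.2, 1.02, 5.85, 1.73 and 10.3 CPM in ventricles. Sbk2 was at 194 ± 23.3 and 3.29 ± 1.81 CPM. Their means were 111-fold and 59-fold higher in atria, with log2 differences of 6.79 (SE 0.57) and 5.87 (SE 0.35).

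Others of the 12 have roles in signalling and matrix. Uts2b, a urotensin-like peptide, was 96.3-fold higher in atria, Clca3a2, a secreted chloride channel regulator, 92.5-fold, and Podn, a small leucine-rich proteoglycan, 55.5-fold. Without ventricle 5 the log2 difference of Uts2b moved from 6.58 to 7.25 and that of Clca3a2 from 6.51 to 7.14. Mybphl, a myosin-binding protein of atrial muscle, was 44.1-fold higher, the membrane protein gene Tmem163 41.5-fold, the melanocyte gene Mlana 40.2-fold and Adcy1, an adenylyl cyclase, 39.3-fold. Kcnf1, a modifying potassium channel subunit, stood at 5.5 ± 1.08 CPM in atria and 0.155 ± 0.15 in ventricles, and its log2 difference moved from 5.1 to 5.71 without ventricle 1. In each of these genes the atria lay above the ventricles without overlap, as the naming rule required.

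Bmp10 encodes a ligand that in the heart is made mainly by trabecular and right atrial muscle. It was below 1 CPM in each room-air library, at 0.321 ± 0.177 CPM in atria and 0.0812 ± 0.122 in ventricles, and its difference of 1.91 (SE 0.84) had an adjusted p of 0.059. Without ventricle 1 it was 2.99 with an adjusted p of 0.018. Bmp10 also passed in DESeq2 (1.95, adjusted p = 0.03), with limma voom (2.63, adjusted p = 0.045) and without atrium 4 (2.08, adjusted p = 0.047). It passed too without atrium 1 and ventricles 1, 3 and 5 (6.54, adjusted p = 0.024). In the remaining settings it did not pass or was not tested.

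**Figure D2:**
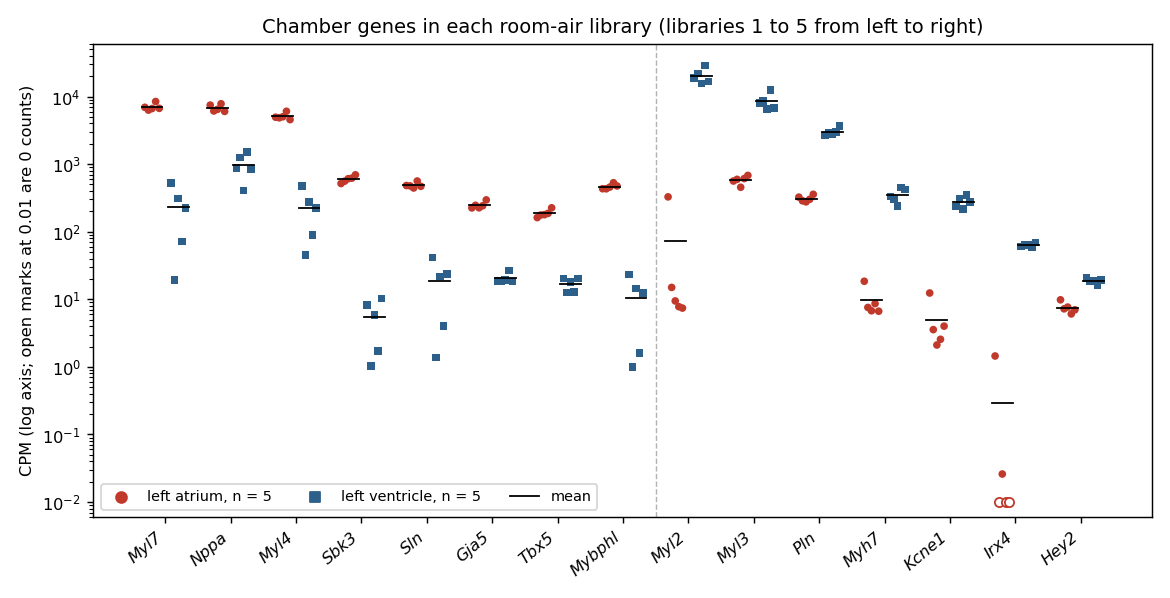
CPM on a log axis for 8 atrial genes (left of the dashed line) and 7 ventricular genes in each of the 5 room-air atria (red circles) and 5 ventricles (blue squares), libraries 1 to 5 from left to right, with a bar at the mean. The chambers do not overlap for any gene shown; atrium 1 stands above the other atria for Myl2 (328 CPM) and Irx4 (1.45 CPM), and Irx4 has 0 counts in 3 atria.

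Ventricular muscle genes were mostly higher in the ventricle. Of 17 ventricular cardiomyocyte genes, all tested, 15 were higher in the ventricle. The other two, Kcnj2 and Atp2a2, were higher in the atrium. The list's median log2 difference was -2.58, and its summed level was 35300 to 59700 CPM in ventricles and 7310 to 9340 CPM in atria. Myl2, the ventricular regulatory light chain, was at 18700, 21900, 15700, 28900 and 16800 CPM in ventricles 1 to 5 and at 328, 15, 9.46, 7.78 and 7.42 CPM in atria 1 to 5. Atrium 1 was the highest atrium by far and still lay below each ventricle. The log2 difference was -8.12 (SE 1.13, adjusted p = 9.6e-06), and -11 without atrium 1.

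Irx4, the Iroquois factor of ventricular muscle, was at 60.3, 63.1, 64.6, 59.2 and 69 CPM in ventricles and at 1.45, 0, 0.026, 0 and 0 CPM in atria. Atrium 1 again stood above the other atria, 3 of which held no count. The log2 difference was -7.81 (SE 0.55, adjusted p = 2.1e-10), and -12.57 without atrium 1. Myl3, the ventricular essential light chain, was at 8480 ± 2390 CPM in ventricles and 582 ± 83 in atria, 14.6-fold apart (log2 difference -3.87, SE 0.22, adjusted p = 1.7e-12). Pln encodes phospholamban, the main inhibitor of the calcium pump in the ventricle, and stood at 3000 ± 385 CPM in ventricles and 310 ± 32.6 in atria (log2 difference -3.27, SE 0.16, adjusted p = 1.6e-13). Hand1, a basic helix-loop-helix factor of the embryonic left ventricle, had 0 counts in the 5 atria together and 237 in the 5 ventricles, which makes it at least 112-fold higher in ventricles when 3 counts over the group are taken as the floor.

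The 12 largest differences in favour of the ventricle also included the following genes. Cacng6, a calcium channel gamma subunit, was at 9.99 ± 2.04 CPM in ventricles and 0.109 ± 0.0908 in atria. Kcne1, which pairs with Kcnq1 to form the slow delayed rectifier, was at 277 ± 52.6 CPM in ventricles and 4.92 ± 4.23 in atria, with a log2 difference of -5.82 that became -6.5 without atrium 1. Timp4, a metalloproteinase inhibitor of the heart, and Fgf16, a heart growth factor, were 52.2-fold and 40.7-fold higher in ventricles. Tuba8, an alpha tubulin of muscle, was 85.7-fold higher, the scaffold gene Ush1c 82.5-fold, the membrane protein gene Lrtm1 55.3-fold and the secretoglobin Scgb1c1 43.2-fold.

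The genes of one chamber were detected at unequal low levels in the libraries of the other. The ventricular genes Myl2, Irx4, Irx2, Kcne1 and Myh7 were each highest in atrium 1 among the atria, where Myl2 stood at 1.61% of its ventricular mean, against 0.0364% to 0.0733% in atria 2 to 5. Myl3, Pln, Ush1c, Timp4 and Lrtm1 were not highest in atrium 1, and Lrtm1 was lowest there, at 1.06% against 1.25% to 3.25%. The atrial genes Myl7, Sln, Myl4, Fgf12, Mybphl and Tmem163 followed another order in the ventricles, with ventricle 1 highest, ventricles 3 and 5 next, then ventricle 4 and ventricle 2 lowest. Myl7 stood there at 7.56%, 0.278%, 4.43%, 1.02% and 3.23% of its atrial mean in ventricles 1 to 5. Nppa (12.9%, 18.5%, 5.99%, 22.4% and 12.5%) and Gja5 (7.52%, 7.6%, 7.87%, 10.8% and 7.4%) did not follow that order. Tissue of the other chamber in a library and activity of these genes in the chamber's own cells cannot be told apart in these data. Without atrium 1 and ventricles 1, 3 and 5, chosen after the values were seen, the log2 difference of Myl7 was 7.28, of Sln 7.5, of Myl4 6.26, of Mybphl 8.52 and of Fgf12 7.67, with the same side and the call kept. Ventricles 1, 3 and 5 were the highest for these genes, so the larger differences follow from the choice itself.

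**Figure D3:**
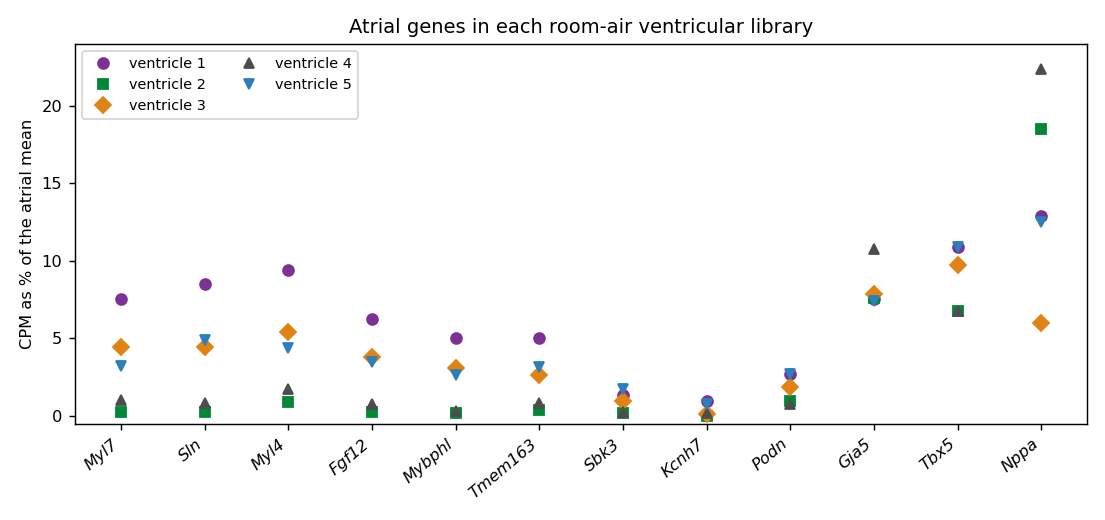
The level of 12 atrial genes in each room-air ventricular library, as a percent of the mean of the 5 atria. Ventricle 1 is highest and ventricle 2 lowest for the 6 genes from Myl7 to Tmem163, while Nppa is highest in ventricle 4 (22.4%) and lowest in ventricle 3 (5.99%).

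The start regions of 4 of these genes are shown because they sit directly before transcripts that differ strongly between the chambers, Myl7 and Nppa in favour of the atrium and Myl3 and Pln in favour of the ventricle. Each run holds the 250 bases before the start in the RefSeq table (GRCm38.p6), on the gene's strand: Myl7 at chr11:5898783-5899032 (minus strand), Nppa at chr4:148000472-148000721, Myl3 at chr9:110763428-110763677 and Pln at chr10:53337436-53337685 (plus strand). Capitals mark matches, on either strand, to 6 motifs of cardiac factors: the T-box site GGTGTG, the GATA site AGATAA, the NKX2-5 site AAGTG, the nuclear receptor site AGGTCA, the MEF2 box and the CArG box bound by serum response factor.
Myl7: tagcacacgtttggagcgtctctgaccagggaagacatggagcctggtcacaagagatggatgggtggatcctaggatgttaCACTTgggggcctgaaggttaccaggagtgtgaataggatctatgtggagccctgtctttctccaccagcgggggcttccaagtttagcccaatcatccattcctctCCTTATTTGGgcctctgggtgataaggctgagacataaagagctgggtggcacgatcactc
Nppa: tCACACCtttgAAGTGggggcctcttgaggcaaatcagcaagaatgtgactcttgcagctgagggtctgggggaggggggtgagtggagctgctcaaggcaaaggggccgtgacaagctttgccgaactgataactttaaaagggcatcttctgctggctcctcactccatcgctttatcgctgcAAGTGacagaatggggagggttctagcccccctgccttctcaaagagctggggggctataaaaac
Myl3: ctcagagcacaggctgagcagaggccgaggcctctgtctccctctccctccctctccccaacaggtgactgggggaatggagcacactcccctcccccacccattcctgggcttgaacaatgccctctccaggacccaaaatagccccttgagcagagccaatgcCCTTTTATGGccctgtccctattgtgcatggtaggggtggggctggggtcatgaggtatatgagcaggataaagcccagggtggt
Pln: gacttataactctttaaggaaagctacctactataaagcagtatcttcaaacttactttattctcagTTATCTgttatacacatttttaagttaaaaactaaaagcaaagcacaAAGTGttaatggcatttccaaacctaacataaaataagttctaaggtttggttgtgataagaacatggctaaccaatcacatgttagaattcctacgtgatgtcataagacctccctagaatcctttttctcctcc

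Positions here count back from the transcript start. A CArG box begins at -61 in Myl7 and at -85 in Myl3, so this box occurs before a light chain gene of either chamber. Nppa has a T-box site from -249 and NKX2-5 sites from -239 and -65. Pln has a GATA site from -183 and an NKX2-5 site from -136. Short motifs recur by their length alone, so the shares over all promoters matter. Of the 12112 tested genes with a promoter in the table, 15.2% had the T-box site, against 17.6% of the 1345 genes at least 2-fold higher in the atrium and 17.7% of the 1048 at least 2-fold higher in the ventricle. The CArG box was in 1.18% of the promoters of tested genes, 0.892% of the atrial and 1.43% of the ventricular set. The nuclear receptor site was in 10.6%, 11.4% and 14.3%, and the MEF2 box in 1.84%, 1.49% and 2.77%. Over the 27025 promoters of the whole table these 4 motifs were in 16.2%, 1.4%, 13.8% and 3.01%. The GATA site was in 6.28%, 6.47% and 8.59% and the NKX2-5 site in 37.6%, 36.9% and 41.6%, against 10.3% and 40.8% of the whole table. A match is a run of letters and no measured binding site, and these shares were not tested.

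Transcription factors split by chamber in both directions. Of 14 tested factors of the atrium and pulmonary vein, 10 were higher in the atrium, with a list median of 0.51. Tbx5, a T-box activator of atrial and conduction genes, was at 162, 177, 179, 187 and 226 CPM in atria and at 20.3, 12.6, 18.1, 12.7 and 20.4 CPM in ventricles. No library crossed over, and the log2 difference was 3.47 (SE 0.15, adjusted p = 5.6e-14). Tbx18, a factor of the sinus horn and epicardium, was 3.42-fold higher in atria, and Nr2f2, the COUP-TFII factor of atrial identity, was 2.15-fold higher. Tbx3, a T-box repressor of the conduction system, went the other way. It was at 14.7 ± 2.31 CPM in ventricles and 1.53 ± 0.358 in atria (log2 difference -3.27, SE 0.18, adjusted p = 1.8e-12). Shox2, Gata6 and Prrx1 did not pass.

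Of 16 tested ventricular factors, 13 were higher in the ventricle, with a list median of -1.64. All 5 Iroquois genes that could be tested were among them. Irx2 was at 6.93 ± 2.43 CPM in ventricles and 0.12 ± 0.175 in atria, and its log2 difference moved from -5.84 to -7.14 without atrium 1. Irx3 was at 30.9 ± 4.55 and 2.72 ± 0.556. Prdm16, a zinc finger regulator of compact ventricular muscle, was 5.98-fold higher in ventricles and Mycn, a growth-promoting MYC family factor, 3.93-fold. Hey2, a Notch target that represses atrial genes in the ventricle, was at 20.6, 18.6, 18.9, 16.3 and 19.2 CPM in ventricles and at 9.83, 7.23, 7.68, 6.08 and 6.99 CPM in atria. The gap was small beside that of Irx4 but without overlap (log2 difference -1.31, SE 0.15, adjusted p = 2.8e-07). Tbx20, a T-box factor of both chambers, was 3.4-fold higher in atria, at 553 ± 52 CPM against 163 ± 29.8.

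The sarcomere lists differed in direction. In the thick filament 5 of 11 genes were higher in the atrium, 5 in the ventricle, and Myh6, the main adult heavy chain of the mouse heart, did not pass. Myh6 was at 12400, 14600, 16100, 17000 and 16100 CPM in atria and at 16900, 14800, 14100, 18900 and 12800 CPM in ventricles, which overlap throughout (log2 difference -0.02, SE 0.13, adjusted p = 0.89). Its fetal partner Myh7 was at 334, 308, 241, 453 and 420 CPM in ventricles and at 18.5, 7.58, 6.77, 8.64 and 6.67 CPM in atria (log2 difference -5.19, SE 0.26, adjusted p = 2.7e-13). Myh7 overlaps an antisense transcript on the opposite strand. Myh7b, another myosin heavy chain gene, was 22.4-fold higher in ventricles and Mybpc3, the cardiac myosin-binding protein C, 3.03-fold. Myh8, a perinatal skeletal heavy chain, was at 67.6 ± 5.82 CPM in atria and 3.02 ± 0.922 in ventricles (log2 difference 4.48, SE 0.21, adjusted p = 1.1e-13).

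Thin filament and Z-disc genes were mostly higher in the ventricle, by smaller steps. In the thin filament 8 of 11 were higher there and Lmod2 in the atrium, with a list median of -0.69. The fetal skeletal actin Acta1 was 7.42-fold higher in ventricles, slow troponin I Tnni1 2.55-fold, cardiac troponin C Tnnc1 2.37-fold and cardiac troponin T Tnnt2 2.11-fold. In titin and the Z-disc 11 of 16 were higher in the ventricle and Nebl in the atrium, with a median of -0.52. Myoz2, a calcineurin-binding Z-disc protein, was 2.83-fold higher and Nrap, a myofibril assembly protein, 2.51-fold, while Myot was below 3 CPM in each library.

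To compare genes with each other, the genes of 10 pairs were expressed as CPM per kilobase of annotated exon. The share of the first gene in the pair was computed in each library. The length is that of all annotated exons of a gene together, not of its main transcript, so the shares depend on the annotation. Per kilobase, Myl7 made up 99.7% ± 0.611 of Myl7 plus Myl2 in atria and 4.01% ± 3.51 in ventricles, a difference of 95.7 points (exact permutation test, two-sided, n = 5 per chamber, p = 0.0079, adjusted p = 0.0088 over the 10 pairs). This p is the smallest that 5 libraries against 5 can give. The test takes all libraries as independent. Whether an atrium and a ventricle of the same number share a mouse is not given in the sources used here. Myl4 made up 79.3% ± 3.18 and 1.27% ± 1 of Myl4 plus Myl3, and Sln 76.7% ± 2.35 and 1.31% ± 1.24 of Sln plus Pln. Per kilobase, the ventricular light chain Myl3 thus made up a visible remainder of its pair in atria, while Myl2 made up almost nothing of its own. The size of that remainder rests on exon lengths of 4637 bases for Myl4 and 2044 for Myl3. Without length, Myl3 stood at 582 CPM in atria against 5090 CPM for Myl4.

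Myh7 was a small share of Myh7 plus Myh6 in both chambers, at 0.0524% ± 0.0362 in atria and 1.75% ± 0.454 in ventricles, and so was Acta1 of Acta1 plus Actc1, at 0.294% ± 0.0383 and 1.32% ± 0.532. In the connexin pair Gja5, the fast-conducting connexin 40, made up 49.7% ± 2.31 of Gja5 plus Gja1 in atria and 7.15% ± 1.08 in ventricles. Abcc8, the SUR1 subunit of the ATP-sensitive potassium channel, made up 78% ± 3.75 and 24.4% ± 3.68 of Abcc8 plus Abcc9. Kcnj3, a subunit of the acetylcholine-gated channel, made up 80.9% ± 2.17 and 40.8% ± 7.42 of Kcnj3 plus Kcnj2, and Cacna1d, the CaV1.3 calcium channel, 14.8% ± 1.01 and 5.58% ± 1.13 of Cacna1d plus Cacna1c. Each of these 6 pairs had the same exact permutation p (0.0079, adjusted 0.0088, n = 5 per chamber). Fetal Tnni1 made up 13.2% ± 1.23 of Tnni1 plus Tnni3 in atria and 16.4% ± 3.22 in ventricles, which overlapped (exact permutation p = 0.087, n = 5 per chamber). Ventricle 4 had the lowest share at 11.2%, and without it the difference was -4.46 points (exact permutation p = 0.0079 in 5 against 4 libraries).

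**Figure D4:**
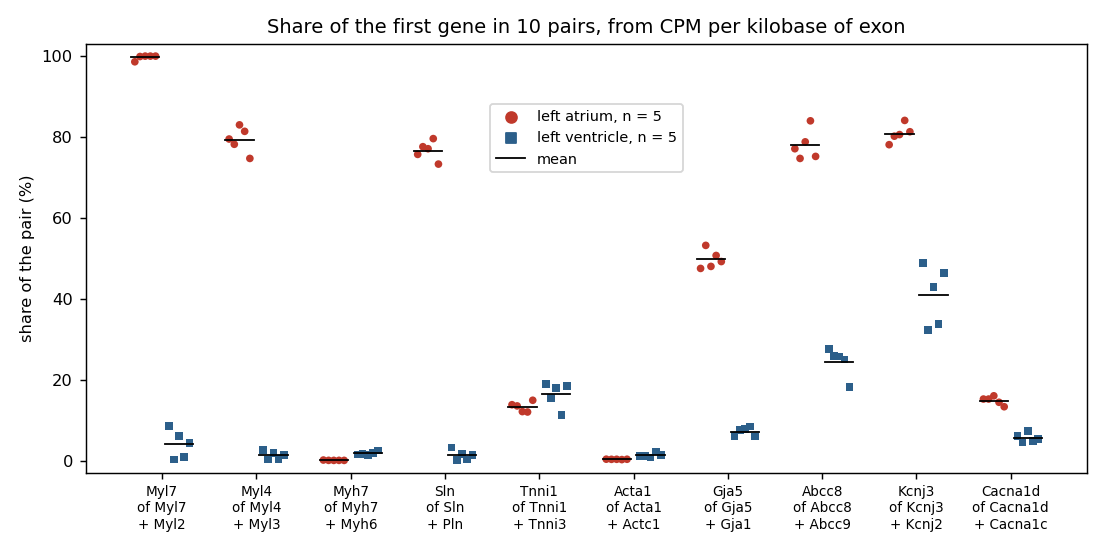
The share of the first gene in each of 10 pairs, in percent of the pair's CPM per kilobase of exon, for the 5 room-air atria (red circles) and 5 ventricles (blue squares), libraries 1 to 5 from left to right, with a bar at the mean. The chambers separate in 9 pairs, from 99.7% against 4.01% for Myl7 down to 0.294% against 1.32% for Acta1, and overlap for Tnni1.

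Calcium cycling genes went both ways. Of 15 genes, 5 were higher in the atrium, 5 in the ventricle and 5 did not pass, with a median of -0.16. These counts lay near the shares over all genes tested, 28.7% higher in the atrium and 26.3% in the ventricle. The pump gene Atp2a2 (SERCA2) was at 3750, 4050, 4410, 4420 and 5370 CPM in atria and at 2440, 2150, 2380, 2430 and 2510 CPM in ventricles, 1.85-fold higher in atria (log2 difference 0.88, SE 0.12, adjusted p = 1.5e-06). The pump inhibitor Pln and the calcium-binding protein S100a1 were higher in the ventricle, the latter 2.98-fold, and Itpr2, an inositol trisphosphate receptor, was 1.84-fold higher in the atrium. The ryanodine receptor Ryr2 did not pass, at 437 ± 67.9 CPM in atria and 404 ± 52.1 in ventricles. Among 8 L-type and T-type channel subunits Cacna1c, the main CaV1.2 channel, was 1.78-fold higher in ventricles and Cacna1d 1.63-fold higher in atria. The call of Cacna1d was lost with transcript length in the model (log2 difference 0.3, adjusted p = 0.21), and that of Cacna1c without atrium 1 and ventricles 1, 3 and 5 (-0.64, adjusted p = 0.05).

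Of 10 tested sodium and pacemaker genes 6 were higher in the atrium and Hcn2 in the ventricle, with a median of 0.68. Scn10a, the NaV1.8 channel, was at 64.6, 67.6, 65.4, 67.9 and 81.2 CPM in atria and at 3.01, 5.88, 7.11, 4.68 and 5.31 CPM in ventricles (log2 difference 3.73, SE 0.26, adjusted p = 5.1e-11). Fgf12, an intracellular modulator of sodium channels, was 34.3-fold higher in atria. Hcn4, the main pacemaker channel of the sinus node, was at 11.4 ± 2.48 and 4.76 ± 2.53 CPM with overlap between the chambers. Sinus node genes as a list counted 7 of 12 higher in the atrium and Tbx3 in the ventricle. Of 13 tested autonomic genes, 5 were higher in the atrium, 1 in the ventricle and 7 did not pass, with a median of 0.19. Over all genes tested the shares were 28.7% in the atrium and 26.3% in the ventricle. Chrm2, the muscarinic receptor of vagal slowing, was 4.69-fold higher in atria, Gnao1, an inhibitory G protein, 4.36-fold, Pde3a, a phosphodiesterase, 2.33-fold and Adrb1, the main cardiac beta receptor, 1.59-fold.

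Potassium channels formed opposed sets, with 13 of 23 genes higher in the atrium, 8 in the ventricle and a median of 0.46. Kcnj3 and Kcnj5, which together form the acetylcholine-gated channel, were 10.9-fold and 3.09-fold higher in atria. The inward rectifier Kcnj2 was 1.81-fold higher in atria. Kcna5, an ultrarapid channel known from human atria, was at 7.27 ± 1.59 CPM in atria and 48.2 ± 2.53 in ventricles (log2 difference -2.73, SE 0.14, adjusted p = 4.6e-13), the opposite side to the rest of the atrial list. The ATP-sensitive channel genes Kcnj8 and Abcc9, also markers of pericytes, were 5.73-fold and 5.17-fold higher in ventricles, and Abcc8 2.15-fold higher in atria. In the intercalated disc 9 of 14 genes did not pass. Gja5 was at 225, 246, 226, 242 and 296 CPM in atria and at 18.6, 18.8, 19.4, 26.7 and 18.3 CPM in ventricles (log2 difference 3.6, SE 0.14, adjusted p = 1.3e-14), while connexin 43 (Gja1) did not pass, at 447 ± 59.7 and 474 ± 55.7 CPM. The desmosome gene Pkp2 was 2.33-fold and the disc gene Xirp2 2.88-fold higher in ventricles.

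The natriuretic genes did not share a side. Nppb, the B-type peptide gene that lies next to Nppa on chromosome 4, was at 288, 319, 202, 303 and 211 CPM in ventricles and at 21.8, 17.8, 12.8, 11.6 and 15.9 CPM in atria. Its libraries did not overlap, and it was 16.6-fold higher in the ventricle (log2 difference -4.05, SE 0.27, adjusted p = 4e-11), opposite to Nppa. The clearance receptor Npr3, also a marker of endocardium, was 9.01-fold higher in atria, the convertase Corin 2.22-fold, and Pam, an amidating enzyme and a main membrane protein of atrial granules, 7.19-fold (3160 ± 419 against 439 ± 57.1 CPM).

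Secreted signals were mostly more abundant in the atrium. Of 12 tested BMP and TGF-beta ligands 7 were higher in the atrium and 3 in the ventricle, with a median of 1.14. Tgfb3 and Tgfb2 were 3.64-fold and 3.25-fold higher in atria and Bmp6 2.32-fold, whereas Bmp7 was 6.56-fold higher in ventricles. Of 16 tested Wnt ligands and antagonists 11 were higher in the atrium and 3 in the ventricle, with a median of 1.29. The secreted antagonists Sfrp2, Dkk3 and Sfrp1 were 16.9-fold, 13.9-fold and 8.28-fold higher in atria, and the ligand Wnt11 6.54-fold. Of 15 tested retinoid genes 6 were higher in the atrium, 3 in the ventricle and 6 did not pass, against 28.7% and 26.3% over all genes tested. Aldh1a2, the main retinoic acid synthase of the heart, was 1.5-fold higher in ventricles and Aldh1a3, another synthase, 2.47-fold higher in atria.

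The mRNAs of energy metabolism were mostly higher in the ventricle in each list. In fatty acid use 26 of 30 genes were higher there, Slc27a6 in the atrium and 3 did not pass, with a median of -1.18. Cd36, the fatty acid transporter, was at 256, 242, 279, 246 and 286 CPM in atria and at 950, 1020, 938, 1010 and 1000 CPM in ventricles (log2 difference -1.91, SE 0.11, adjusted p = 2.3e-12). The lipid droplet protein Plin5 was 15-fold higher in ventricles, the mitochondrial carrier Ucp3 12.5-fold and the thioesterase Acot2 4.54-fold. The 21 genes of the tricarboxylic acid cycle were all higher in the ventricle (median -0.76), among them Idh2 1.97-fold and Sdha 1.89-fold, and so were the 38 nuclear genes of the respiratory chain (median -1.33). Cox6a2, a muscle subunit of cytochrome oxidase, was at 439, 404, 442, 507 and 394 CPM in atria and at 1490, 1850, 1200, 2160 and 1320 CPM in ventricles. It was 3.67-fold higher (log2 difference -1.87, SE 0.22, adjusted p = 2.6e-07), and Atp5g1, Cyc1 and Uqcrc1 2.81-fold, 2.62-fold and 2.51-fold.

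Transcripts of the mitochondrial genome moved the same way. Of 13 genes, 8 passed the filter and all 8 were higher in the ventricle (median -1.47). The filter on low counts left out mt-Nd4l, mt-Co2, mt-Co3, mt-Atp6 and mt-Atp8, the last at 0 counts. These genes thus added little to the mitochondrial share of the counts. Why their counts were low was not tested. The complex I gene mt-Nd1 was at 9050, 9440, 11000, 10800 and 11400 CPM in atria and at 34900, 47500, 36500, 26400 and 40700 CPM in ventricles, 3.6-fold apart. Ventricle 4 was the lowest ventricle for mt-Nd1, mt-Nd4, mt-Cytb and mt-Nd2, and for mt-Nd2 it fell within the atrial range. In glycolysis 12 of 20 genes were higher in the ventricle and 8 did not pass (median -0.42), led by Eno3 at 2.58-fold, Aldoa at 1.94-fold and Gapdh at 1.84-fold. Of 9 creatine, ketone and oxygen store genes 8 were higher in the ventricle. Mb (myoglobin) was 5.15-fold higher and mitochondrial creatine kinase Ckmt2 4.62-fold.

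Of 40 ribosomal protein genes 36 were higher in the ventricle and 4 did not pass (median -0.64). Rpl38 was at 110, 89.7, 84.5, 118 and 88.1 CPM in atria and at 221, 251, 179, 396 and 177 CPM in ventricles, and ventricle 4 stood above the rest. Ribosomal mRNAs are short, and the length slope was lower in each ventricle than in each atrium. The slope put in the model was instead taken relative to the mean of each chamber over both oxygen levels. It ran from 0.0059 to 0.133 in room-air atria and from -0.219 to 0.0244 in room-air ventricles. A length difference between the chamber means was thus not adjusted for. With this slope in the model 19 of the 40 remained past the threshold and the median was -0.15. Without ventricle 4 these values were 27 and -0.48. The respiratory chain list kept 38 of 38 and a median of -0.82 with the slope in the model, the cycle list 20 of 21 and -0.56, and fatty acid use 26 of 30 and -1.1.

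Of 29 cell cycle genes 14 were higher in the ventricle, 15 did not pass and the median was -0.3. Ccnd1 (cyclin D1), which drives entry into the cycle, stood out at 35.4, 32.8, 39.6, 33.3 and 30.1 CPM in atria and 235, 215, 238, 258 and 197 CPM in ventricles. That is a 6.68-fold difference without overlap (log2 difference -2.74, SE 0.09, adjusted p = 1.3e-15). The mitotic kinase Cdk1 was 1.69-fold higher in ventricles, the nucleotide-synthesis gene Rrm2 1.61-fold and the mitotic cyclin Ccnb1 1.53-fold.

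**Figure D5:**
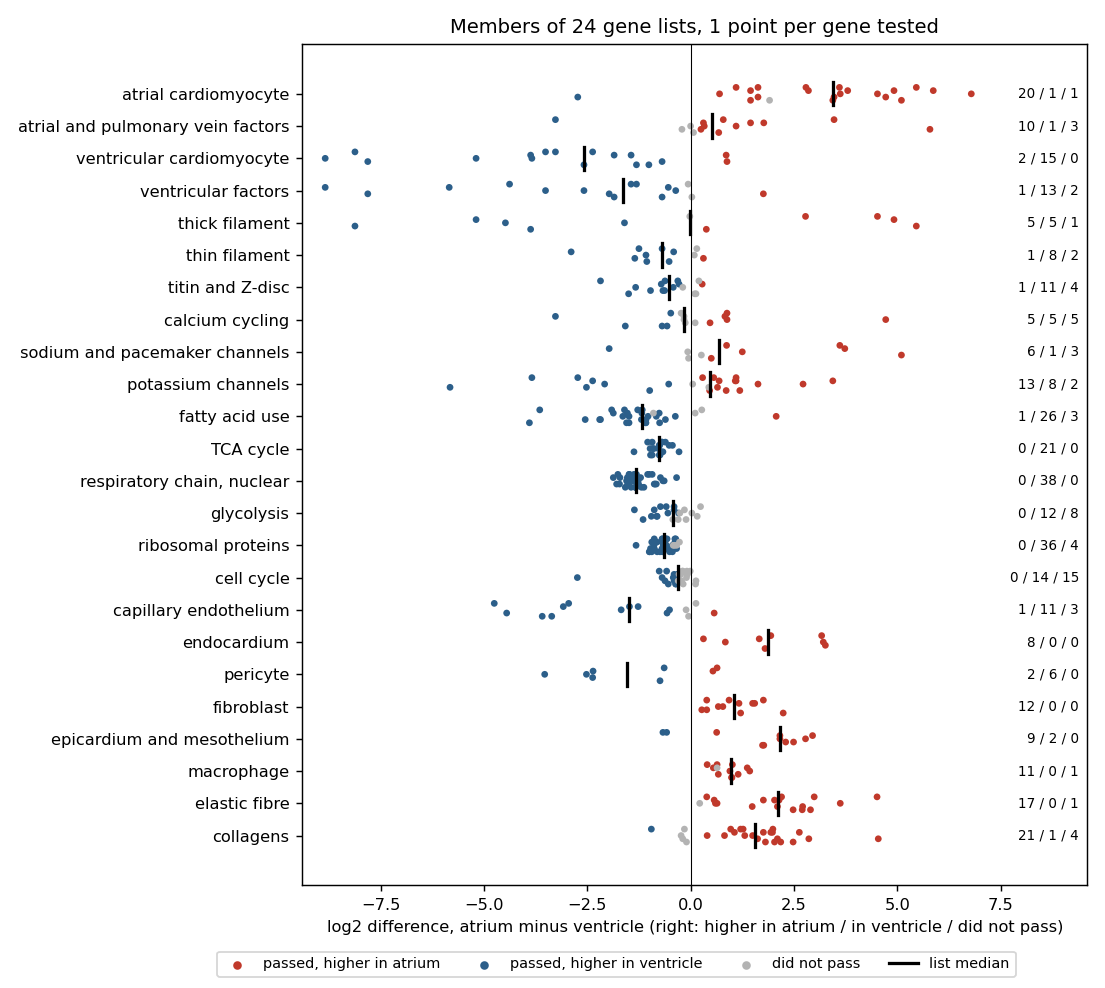
Log2 differences (atrium minus ventricle) of the members of 24 gene lists, 1 point per gene tested, red or blue where the gene passed with more in the atrium or the ventricle and grey where it did not pass; the bar is the list median and the numbers at the right count the 3 kinds. Metabolic and ribosomal lists lie left of 0, matrix, fibroblast and endocardial lists right of 0, and the thick filament list spreads to both sides around a median of -0.02.

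Vessel genes went both ways, between the lists and within most of them. Of 15 capillary endothelial genes 11 were higher in the ventricle, Tek in the atrium, and Pecam1, Tie1 and Emcn did not pass, with a median of -1.48 and summed levels of 4190 to 5190 CPM in ventricles and 1520 to 1700 in atria. Car4, a capillary carbonic anhydrase, was at 43.6, 60.9, 39.8, 50.4 and 47.7 CPM in ventricles and at 1.5, 1.44, 3.28, 1.45 and 1.3 CPM in atria (log2 difference -4.75, SE 0.24, adjusted p = 3.5e-13). The retinol-binding protein Rbp7 was 21.9-fold, the lipase anchor Gpihbp1 8.44-fold and the tight junction gene Cldn5 7.74-fold higher in ventricles. The broadly endothelial genes of this list did not share a result. Pecam1 stood at 347 ± 21 CPM in atria and 317 ± 24 in ventricles. Cdh5 was at 231 ± 36.7 CPM in atria and 557 ± 117 in ventricles (log2 difference -1.27, SE 0.19, adjusted p = 1e-05). Of 8 pericyte genes 6 were higher in the ventricle, with Higd1b 11.6-fold.

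The 8 endocardial genes were all higher in the atrium (median 1.87), with Smoc1 9.25-fold and Plvap 3.48-fold. Among 9 arterial genes 6 were higher in the atrium and 3 in the ventricle: Bmx was 4.78-fold higher in atria, Sox17 6.04-fold and Dll4 3.53-fold higher in ventricles. Of 6 venous genes 4 were higher in the atrium, led by Nr2f2 and Vcam1 (1.84-fold), and Vwf (1.4-fold) lost its call with length in the model (0.25, adjusted p = 0.17). Of 6 tested lymphatic genes Flt4 and Reln were 2.51-fold and 2.78-fold higher in ventricles and Pdpn 2.77-fold higher in atria. Smooth muscle genes split, with Tagln 2.92-fold and Cnn1 2.32-fold higher in atria and Myh11 3.84-fold higher in ventricles.

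Connective tissue genes were higher in the atrium. The 12 fibroblast genes all were (median 1.05), at summed levels of 15500 to 16600 CPM in atria and 5330 to 7310 in ventricles. Pi16, Col1a2, Dpt and Postn were 4.73-fold, 3.38-fold, 2.93-fold and 2.26-fold higher. Eln encodes elastin, the core of elastic fibres, and was at 26100, 24100, 23100, 21500 and 17600 CPM in atria and at 901, 785, 1160, 947 and 1150 CPM in ventricles. Each atrium lay above each ventricle, and the mean was 22.7-fold higher in atria (log2 difference 4.51, SE 0.23, adjusted p = 4.4e-13). Of the 18 elastic fibre genes 17 were higher in the atrium and Fbn2 did not pass (median 2.12), with Mfap4 7.45-fold, the crosslinking enzyme Loxl1 4.58-fold and the latent TGF-beta binding protein Ltbp1 4.08-fold.

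Of 26 collagen genes 21 were higher in the atrium, Col5a3 in the ventricle and 4 did not pass (median 1.56). With transcript length in the model 20 were higher in the atrium and 5 in the ventricle (median 1.26). The minor collagens Col9a2 and Col23a1 were 6.2-fold and 5.56-fold higher, and the fibril-associated collagens Col14a1 and Col16a1 4.54-fold and 3.84-fold. Of 18 matricellular genes 15 were higher in the atrium (median 1.04), with tenascin C (Tnc) 9.83-fold, the proteoglycan biglycan (Bgn) 4-fold and Thbs2 2.88-fold, while Thbs4 and Prelp were higher in the ventricle. Of 8 valve mesenchyme genes 5 were higher in the atrium (median 1.58), among them Vcan 3.4-fold and Sox9 2.85-fold, and Scx was 2.43-fold higher in the ventricle. Of 11 epicardial and mesothelial genes 9 were higher in the atrium (median 2.16). Msln was at 107, 154, 158, 142 and 162 CPM in atria and at 39.5, 8.73, 29.3, 16.4 and 34.8 CPM in ventricles, where ventricles 1, 3 and 5 were again the highest, as for Myl7. The part of mesothelial tissue in the matrix counts was not tested.

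Leukocyte genes were at low levels. Of 12 macrophage genes 11 were higher in the atrium (median 0.97, summed levels 238 to 277 against 118 to 154 CPM), with Csf1r 2.7-fold, Adgre1 2.59-fold and Cx3cr1 2.23-fold. Of 6 tested mast cell genes the proteases Tpsb2, Mcpt4 and Cma1 were 12.2-fold, 11.3-fold and 11-fold higher in the ventricle, Cpa3 was also higher there and Kit in the atrium. Mcpt4 was highest among atria in atrium 3, and without it the log2 difference moved from -3.49 to -4.29. The 5 B cell genes were all higher in the ventricle, with the B cell receptor subunit Cd79a at 1.65 ± 0.185 against 0.34 ± 0.059 CPM. Of 9 tested T cell genes 0 passed in edgeR's test, 0 had an unadjusted p under 0.05 and 0 passed in DESeq2. Cd3d and Themis passed without atrium 2 in edgeR's test (log2 differences -2.67, adjusted p = 0.0096, and -2.63, adjusted p = 0.01) and with limma voom (-1.62, adjusted p = 0.031, and -1.88, adjusted p = 0.028). With a replicate block Cd3d (-1.83, adjusted p = 0.011), Themis (-1.77, adjusted p = 0.044) and Cd4 (-1.02, adjusted p = 0.017) passed in edgeR's test, and Cd4 also did with the room-air libraries alone (-1.04, adjusted p = 0.02).

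Of the remaining lists, 2 adipocyte genes could be tested, and Cidea and Pparg were 12.6-fold and 8.09-fold higher in the ventricle, while Adipoq, Plin1 and Lep, which define fat cells, were near or at 0 in both chambers. Of 7 tested red cell genes Alas2 was higher in the atrium at an adjusted p of 0.047 and lost that call without any of atria 2, 4 and 5 or any ventricle. The atria ranged from 557 to 3180 CPM in Hbb-bs, the latter in atrium 2. Of 4 platelet and 4 lung epithelial genes tested, 0 passed in edgeR's test, 0 had an unadjusted p under 0.05 and 0 passed in DESeq2. The platelet gene Pf4 passed with transcript length in the model (log2 difference 0.55, adjusted p = 0.00076). The airway secretoglobin Scgb3a2 reached 49.8 CPM in atrium 3 and 15 CPM in ventricle 3 against at most 3 CPM in the other libraries. Its log2 difference was 1.68 (adjusted p = 0.38), 5.11 (adjusted p = 0.041) without ventricle 3 and -2.04 (adjusted p = 0.29) without atrium 3, and that of Scgb1a1 likewise 1.64, 4.35 (adjusted p = 0.039) and -1.74. Of 6 tested neuronal genes Tubb3 was 4.31-fold higher in the atrium and Stmn2 and Uchl1 2.86-fold and 1.88-fold higher in the ventricle, and of 6 Schwann cell genes Foxd3 was higher in the atrium and Cdh19 in the ventricle. Among 6 tested skeletal muscle genes Actn3 was 7.03-fold higher in the atrium and Mybpc2 5.59-fold higher in the ventricle, and Myod1 was at 0 in both.

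The 10 hyperoxia libraries, from other pups, give the same contrast at another oxygen level. Of the 9122 genes that passed in room air, 73.1% had the same sign in hyperoxia and 49.4% also passed there. Among the 3485 genes with at least a 2-fold difference (21.0% of those tested) these shares were 86.9% and 66.2%. The chamber difference itself changed between the oxygen levels in 6060 of 16598 genes (36.5%), and in 2621 with length in the model. Y-linked reads exceeded Xist in 1 of 5 hyperoxic atria and 2 of 5 hyperoxic ventricles, against all 10 room-air libraries, and the part of sex in these counts was not tested.

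For single chamber genes named by rule the change was read too, and it passed for 8 of them. The difference of Nppa went from 2.79 in room air to 5.8 in hyperoxia (change 3.01, SE 0.49, adjusted p = 0.00011), and that of Myl4 from 4.52 to 7.22 (change 2.7, adjusted p = 0.0091). With transcript length in the model the change of Myl4 was 2.13 (adjusted p = 0.18). The difference of Gja5 shrank from 3.6 to 1.62 (change -1.98, SE 0.18, adjusted p = 1.8e-07) and that of Tbx5 from 3.47 to 2.37 (adjusted p = 0.00028). On the ventricular side Hey2 went from -1.31 to -3.49 (change -2.18, SE 0.22, adjusted p = 5.1e-07), Pln from -3.27 to -4.06 (adjusted p = 0.0054) and Myh7 from -5.19 to -4.36 (change 0.83, adjusted p = 0.041). The change of Myh7 did not pass with transcript length in the model (0.35, adjusted p = 0.63), nor with 1 library left out in 13 of 20 cases (adjusted p 0.051 to 0.082). Irx4 went from -7.81 to -11.89 (change -4.08, adjusted p = 0.039), and that change was 0.68 (adjusted p = 0.63) without room-air atrium 1 and -4.03 (adjusted p = 0.18) with transcript length in the model. Leaving out any 1 hyperoxic atrium, hyperoxic ventricle 5 or room-air ventricle 4 also lost the call of Irx4 (adjusted p 0.05 to 0.081). The change did not pass for Myl7, Sln, Bmp10, Myl2 and Myl3, with differences in hyperoxia of 7.56, 6.5, 1.64, -10.47 and -3.62, each on the same side as in room air. With transcript length in the model the change of Myl3 turned from 0.25 to -0.67 and passed (adjusted p = 0.0049). The change of Myl7 passed in DESeq2 (2.69, adjusted p = 0.036) and without hyperoxic ventricle 1 (3.86, adjusted p = 0.011) or room-air ventricle 2 (2.94, adjusted p = 0.048), and that of Sln without hyperoxic ventricle 1 (3.2, adjusted p = 0.043).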

How the data were processed

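Poly(A) RNA of left atria and left ventricles was sequenced with a stranded TruSeq kit, per the labels. The authors deposited raw read counts per gene symbol, in 2 columns per library and not normalized. The submitters' processing notes name GRCm38.p6 as the build and, as tools, STAR 2.7.6a, fastp 0.20.1, Salmon 1.3.0 and featureCounts with Subread 2.0.1. Which strand setting and which annotation release the counting used is not given in the sources used here, so reads of overlapping or antisense genes may be mixed; of 199 genes named by rule, 8 share exonic bases with another gene on the same strand and 69 on either strand. The sample labels and the series text name different RNA kits.

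The test was edgeR 4.0.16 (R 4.3.3): filterByExpr, TMM scaling and a robust quasi-likelihood model over all 20 libraries with 1 coefficient per group, then Benjamini-Hochberg correction over 16598 genes. Shares of the gene pairs used an exact permutation test over libraries. Positions and exon lengths came from GENCODE M21 (GRCm38) by symbol, and promoters from the RefSeq table. The test was checked on simulated counts of 16400 genes, with 67 changed 1.5-fold, 67 changed 2-fold and 66 changed 4-fold. It recovered 49.3%, 74.6% and 89.4% of these, and 4.7% of its calls were false. Far fewer genes changed there than passed in the real data, so the check does not cover scaling where most genes differ. Between any 2 libraries of a chamber the counts differed by far more than sampling noise (chi-square over its degrees of freedom at least 13.26).

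The members and the 50 gene lists were chosen with earlier results of these data known. Genes were named by rule: the 12 largest differences each way with at least 5 CPM in the higher chamber and no overlap, up to 4 members of each list by smallest p (3 for cell type lists), 14 chamber genes and the paired genes. The naming left out Y-linked genes, Xist, pseudogenes and predicted genes. Some genes the rule takes are not reported here. Other list members named in the text were chosen after their values were seen. Alternatives included DESeq2 1.42.0, limma 3.58.1, other scalings and filters, transcript length as a covariate and each library left out. The length covariate was each library's slope on exon length, relative to the mean of its chamber over both oxygen levels. It does not adjust for a length difference between the chamber means.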

Additional observations from a re-analysis of the deposited data

Results flagged for a closer look

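Among 406 groups of 5 room-air libraries examined for a library standing apart, 33 had one whose gap to its nearest neighbour took more than 0.71 of the group's range, and chance gives about 1 in 20 groups. Atrium 1 was highest for the ventricular genes Myl2 (0.977 of the range), Irx4 (0.982), Myh7 (0.834), Kcne1 (0.814) and Irx2 (0.755). It also had the lowest share of Myl7 in Myl7 plus Myl2 (0.968) and the highest of Myh7 in Myh7 plus Myh6 (0.902). Other ventricular genes, such as Myl3, Pln and Lrtm1, were not highest in atrium 1, and the cause was not tested.

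Ventricle 4, whose library leaned most to short transcripts, was highest for Gja5 (0.862), Tnni3 (0.724), Plin5 (0.737), Rps2 (0.711) and Cdk1 (0.747) and lowest for Chrm2 (0.748) and Hk2 (0.762). Atrium 3 was highest for Car4 (0.898), Mcpt4 (0.902), Scgb1a1 (0.932) and Scgb3a2 (0.94), and ventricle 3 for Scgb1a1 (0.914) and Scgb3a2 (0.951). Atrium 5 was highest for Kcnh7 (0.747), Scn10a (0.802), Kcna5 (0.84) and Jup (0.729) and lowest for Ppbp (0.752). Atrium 4 was highest for Tnni3 (0.765) and Tnnt2 (0.852), and atrium 2 for Prdm16 (0.823) and Cd3d (0.779). Ventricle 2 was highest for Hbb-bs (0.759), Hbb-bt (0.76) and Col9a2 (0.873), and ventricle 5 had the lowest share of Abcc8 in Abcc8 plus Abcc9 (0.723).

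The chamber difference changed between room air and hyperoxia, by edgeR's test of that change, for 8 chamber genes. On the log2 scale (hyperoxia minus room air) the changes were 3.01 for Nppa, 2.7 for Myl4, -1.98 for Gja5, -1.09 for Tbx5, 0.83 for Myh7, -4.08 for Irx4, -2.18 for Hey2 and -0.78 for Pln. The calls of Myl4, Myh7 and Irx4 were lost in some settings, as given above.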

How the results depend on the processing

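The number of genes that differed between chambers ranged from 7695, without room-air atrium 1 and ventricles 1, 3 and 5, to 10663 with limma voom, against 9122. Leaving out 1 library gave 8347 to 9001. Of 184 genes named by rule that passed, 176 kept side and call in all 21 settings. Among those that did not, Cacna2d2 (1.2, adjusted p = 0.054) lost its call with transcript length in the model, and Jup (-0.34, adjusted p = 0.14), Foxd3 (1.27, adjusted p = 0.11) and Cdh19 (-0.83, adjusted p = 0.17) without the 4 libraries named above, a set chosen after seeing the data. Cacna2d2 moved from 1.63 to 2.32 without ventricle 3.

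The list medians of retinoid and Schwann cell genes lay near 0 and changed sign. Retinoid genes were at -0.04 with the 1 CPM filter. Schwann cell genes were at -0.16 with that filter, -0.05 without a filter and -0.09 to 0.17 with 1 library left out. They were also at -0.05 without the 3 libraries tilted most to short transcripts (room-air ventricle 4 and hyperoxic atria 2 and 4, chosen after seeing the data). The adipocyte median was far from 0, at -3.33 with 2 genes tested. It was 0.3 without a filter, which also takes in genes of few counts. With transcript length in the model, 2621 genes changed their chamber difference with hyperoxia. The change of Irx4 ran from -4.97 to 0.68 with 1 library left out.

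The Tnni1 share differed by -4.46 points without the tilted libraries and by -4.46 to -2.53 with 1 library left out. Without the 4 libraries, 4 atria against 2 ventricles, no share could reach an adjusted exact permutation p below 0.074, and the differences were 99.4 points for Myl7, 79.0 for Myl4, -1.68 for Myh7, 76.7 for Sln, -1.38 for Acta1, 42.3 for Gja5, 52.8 for Abcc8, 48.5 for Kcnj3 and 10.1 for Cacna1d. The cause of these changes was not tested.

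With a replicate block pairing atria and ventricles by number, 10260 genes passed, against 9755 without it on the same libraries. Deviations of same-numbered libraries correlated at -0.0002, 0.117, 0.404, 0.407 and 0.167 for numbers 1 to 5. Not every library correlated best with its own number. The numbers were not taken as pairs in the main test, and whether they mark a shared mouse is not given in the sources used here.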
